A study of Homo sapiens with 18 samples.

Results

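Keratins are the intermediate filament proteins of epithelial cells, and this account covers every row of the count table whose gene name is KRT followed by a number and, in some, a letter A, B or C. The rule found 55 of the 19901 rows. Of these, 29 encode type I keratins, 28 of them on chromosome 17 and KRT18 on chromosome 12, and 26 encode type II keratins, all on chromosome 12. Enough reads for a test were present for 42 of the 55, and the 13 others had at most 13 counts in any library. The untested rows were 5 hair shaft keratins (KRT31, KRT33A, KRT37, KRT38 and KRT39), the root sheath keratins KRT25 to KRT28, the corneal KRT12, the intestinal KRT20, and KRT24 and KRT222.

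The mRNA came from established human head and neck squamous cell carcinoma (HNSCC) lines bought from a cell bank, each a line from 1 tumor. Detroit 562 derives from a metastatic site of a pharyngeal tumor, FaDu from a primary tumor of the hypopharynx and SCC-9 from a primary tumor of the tongue. Each line gave 3 control libraries, from cells left untreated, and 3 from cells given 50 ng/mL hepatocyte growth factor (HGF), the ligand of the receptor Met, which makes 18 libraries in 6 groups. Treatment lasted 16 h by the sample records and the sequencing methods, whereas 48 h stands in the record of the series. No group carries a genetic change made for the study. The medium was MEM-α for Detroit 562 and FaDu, but DMEM F12 with 400 ng/ml hydrocortisone for SCC-9, so that line and medium cannot be told apart in any comparison with SCC-9. The sequencing methods describe seeding, treatment and RNA isolation and state that the experiment was repeated. Replicate numbers run from 1 to 3 in both arms. No record says that these numbers are those repeats, so p-values measure the spread between these libraries, which may be in part technical.

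A keratin filament is built from pairs of 1 type I and 1 type II chain, so epithelial cells make members of both types. Simple epithelia make KRT8 with KRT18 and often KRT7, KRT19 or KRT20. The basal layer of stratified epithelia makes KRT5 with KRT14, and some basal cells also make KRT15. Suprabasal cells of the mouth, pharynx and esophagus make KRT4 with KRT13, those of the epidermis make KRT1 with KRT10, and wounded or activated keratinocytes make KRT6A, KRT6B or KRT6C with KRT16 or KRT17. Trichocytes of the hair shaft make a separate set, KRT31 to KRT40 and KRT81 to KRT86. HNSCC arises from stratified squamous mucosa, and pathologists use several of these proteins to recognise it.

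The values are counts of reads per gene made by the authors, and CPM below means counts per 1000000 counts after TMM normalization of library size. Total counts per library ranged from 35304770 to 44003970. The epithelial character of the lines was checked with markers that are not keratins, and all 8 epithelial markers and all 5 squamous markers had a group mean of at least 1 CPM in every group. EPCAM, an epithelial adhesion molecule, was 426 CPM in untreated Detroit 562, 149 in FaDu, against 80.04 in SCC-9. The leukocyte markers PTPRC and CD3E were below 1 CPM in each group's mean, while CD68, a lysosomal protein of macrophages, had means of 23.8 to 57.6 CPM. Of the 4 endothelial markers, PECAM1 and KDR were below 1 CPM in each group's mean. VWF had a mean of 1.72 CPM in untreated Detroit 562 and 3.19 CPM in untreated FaDu, and CDH5 2.49 CPM in untreated FaDu. The 6 fibroblast markers summed to 77.5 to 99.4 CPM in untreated SCC-9, 29.8 to 54.3 CPM in Detroit 562 and 4.01 to 6.79 CPM in FaDu. COL1A1 and COL1A2 carried most of that sum in Detroit 562 and SCC-9.

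Some keratins share sequence, so their counts may share reads. The coding sequences of KRT6A, KRT6B and KRT6C are 1692 bases each, KRT6A and KRT6B differ at 42 of them, KRT6A and KRT6C at 35, and KRT6B and KRT6C at 25. The longest stretch that is the same in all 3 is 269 bases, far longer than a read of 75. Of all 75-base windows of its transcripts, 26.2% in KRT6A, 34.6% in KRT6B and 42.5% in KRT6C also occur in another keratin. The 60 coding bases where they differ most, bases 663 to 722 from the start codon, are shown to let the reader see how little separates them, with capitals at positions where the genes are not all alike (GENCODE 44 transcripts, GRCh38, minus strand of chromosome 12, chr12:52491555-52491614 for KRT6A, chr12:52450439-52450498 for KRT6B and chr12:52472099-52472158 for KRT6C).
KRT6A: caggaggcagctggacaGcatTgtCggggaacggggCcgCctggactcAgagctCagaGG
KRT6B: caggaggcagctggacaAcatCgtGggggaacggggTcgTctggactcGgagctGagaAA
KRT6C: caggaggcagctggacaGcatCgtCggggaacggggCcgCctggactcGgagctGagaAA
This window lies within 1 exon of each gene and holds 9 variable positions. KRT6A and KRT6B differ at all 9, KRT6A and KRT6C at 5, and KRT6B and KRT6C at 4. The hair keratins KRT81 and KRT86 are the other such pair, with 34.1% of the windows of KRT81 and 28.3% of those of KRT86 found in another keratin. Moreover, the extent of KRT86 on the plus strand encloses KRT81, which lies on the minus strand. It also starts within the extent of KRT7 (chr12:52232520-52252186) on the same strand, so a read there could count for both. The split of counts within these groups is therefore uncertain.

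A further feature concerns low counts inside the type II cluster. KRT71, KRT74, KRT72, KRT73, KRT2, KRT1 and KRT77 follow each other on the minus strand between KRT5 and KRT4 (chr12:52543909-52703463), and neighbours in this run had nearly the same raw count in every library. Adjacent members never differed by more than 27 counts, and KRT2 and KRT1 never by more than 5. Untreated Detroit 562 had 212, 133 and 107 counts for KRT2 and 207, 132 and 106 for KRT1. The hair keratins KRT84 and KRT82 matched in the same way, with 477, 585 and 594 against 492, 589 and 603 counts in untreated SCC-9. By a rule chosen after the counts were seen (a difference of at most 2 square roots of the summed counts and at least 10 counts, in every library), 9 keratins matched a neighbour. KRT2 and KRT1 are genes of cornified epidermis and KRT71 to KRT74 of the hair root sheath. The command given for counting scores an alignment for each gene whose extent it touches and names no option to split spliced alignments. Whether alignments that span several genes gave these counts was not tested, and the counts of calls below are therefore also given without these 9.

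**Figure D1:**
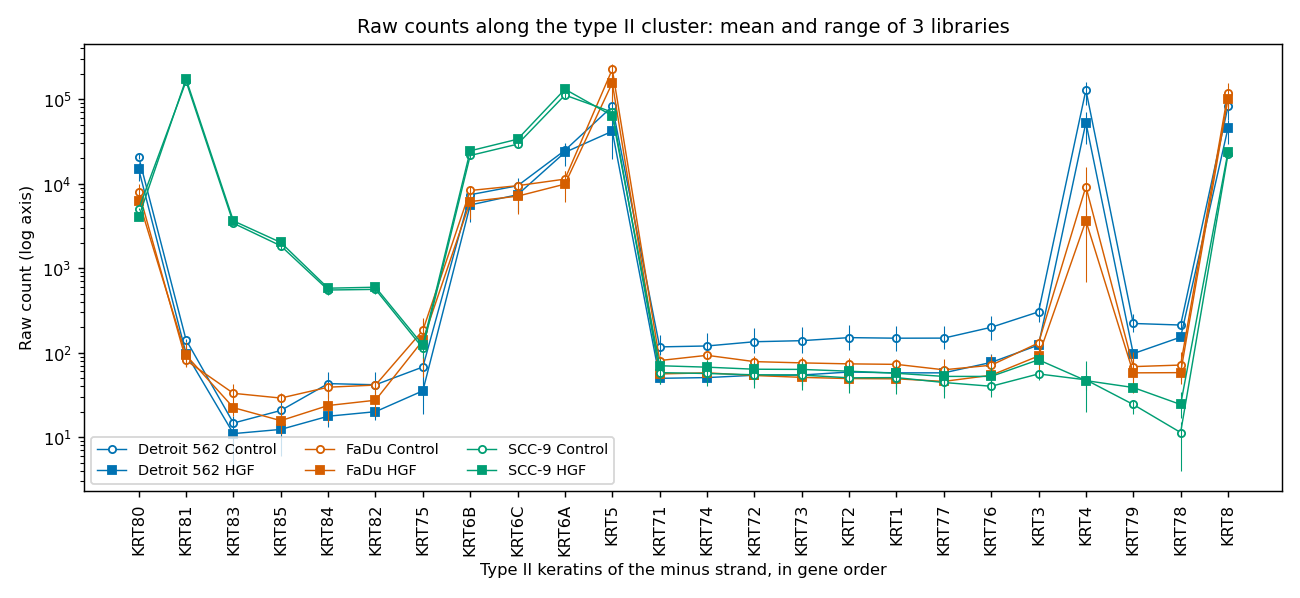
Raw counts (log axis) of the type II keratins of the minus strand in gene order, as the mean (points, open for control and filled for HGF) and range (vertical lines) of 3 libraries for each line and treatment. From KRT71 to KRT77 the counts are level in each group, between 29 and 212 in all libraries, and they lie next to KRT5 and KRT4, which are far higher.

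In untreated cells the lines had distinct keratin profiles. Keratins made up 1.62%, 1.53% and 1.05% of all counts in the control libraries of Detroit 562, 1.91%, 1.86% and 1.09% in FaDu, against 1.46%, 1.66% and 1.72% in SCC-9. The third library of Detroit 562 and of FaDu was lower than the first and second of its line. In bulk RNA, fewer cells that make a keratin and less of it per cell cannot be told apart. Simple epithelial keratins held 46.3% ± 0.25 (SD, n = 3) of keratin counts in Detroit 562 and mucosal and corneal suprabasal keratins 24.3% ± 1.77. FaDu had 38.01% ± 3.08 in basal keratins, 35.5% ± 2.85 in simple epithelial and 22.3% ± 1.57 in wound and activation keratins. In SCC-9 the simple epithelial share was 6.48% ± 0.876, and 30.8% ± 1.89 of keratin counts fell on hair shaft keratins, 31.4% ± 0.787 on wound and activation keratins and 30.05% ± 2.03 on basal keratins.

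**Figure D2:**
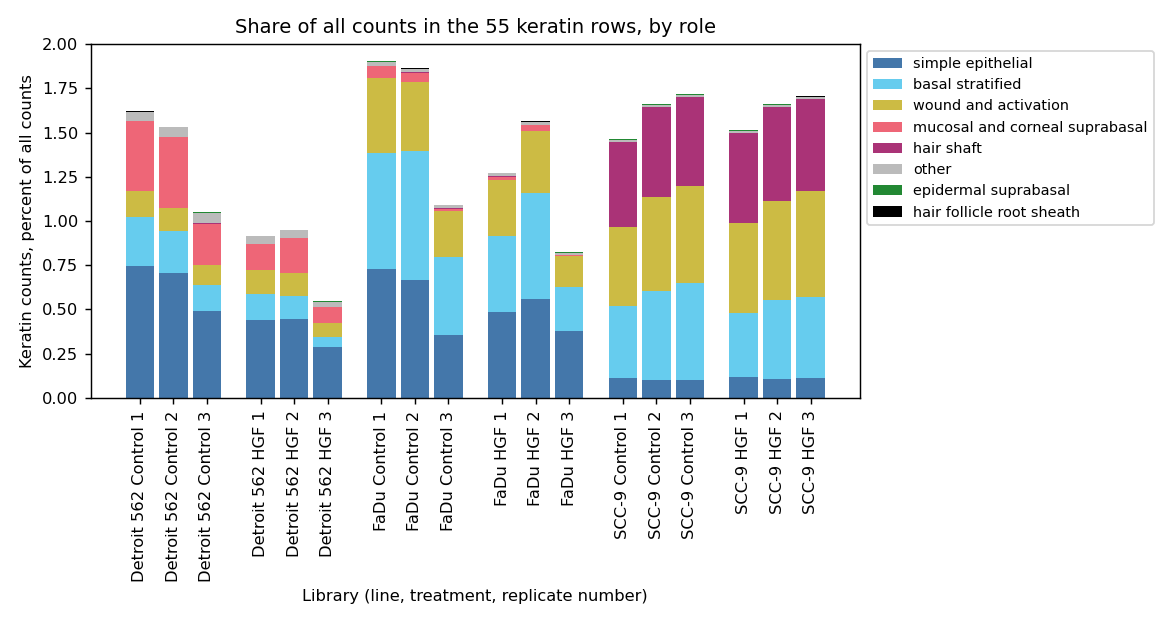
Share of all counts (percent) that fell on the 55 keratin rows in each of the 18 libraries, with each bar stacked by the role of the keratins. Bars start at 0, and the hair shaft block is large in the 6 SCC-9 libraries alone, the mucosal block is largest in Detroit 562, and the total ranges from 0.545% in HGF-treated Detroit 562 replicate 3 to 1.91% in FaDu control replicate 1.

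The most abundant keratins per unit of length differed between the lines. Levels of different genes are given as CPM per kb of exon sequence (GENCODE 44, union of exons). Untreated Detroit 562 was led by KRT19 at 1218 ± 315 CPM per kb (SD, n = 3) and KRT4 at 1149 ± 296, whose ranges overlapped, followed by KRT18 at 516 ± 49.6 and KRT5 at 509 ± 135, which also overlapped. With the length of the canonical transcript in place of all exons, KRT8 ranked 3, KRT18 4 and KRT5 5 in this group. FaDu was led by KRT5 at 1325 ± 329 and KRT17 at 941 ± 243. SCC-9 was led by the hair shaft keratin KRT81 at 2063 ± 36.5 and by KRT14 at 1292 ± 232, followed by KRT6A at 936 ± 68.6. The order of KRT81 and KRT14 held in each of the 3 control libraries of SCC-9.

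Across the 42 tested keratins, 20 were higher and 10 lower in untreated Detroit 562 than in untreated FaDu, against 31.2% and 29.8% of all genes tested. In the same order, 20 were higher and 17 lower in Detroit 562 than in SCC-9 (31.4% and 33.9% of all genes), and 17 were higher and 16 lower in FaDu than in SCC-9 (30.7% and 33.5%). A keratin was called where the p of edgeR's quasi-likelihood test, adjusted by Benjamini-Hochberg over all 15475 genes, was below 0.1 and the log2 fold change was 0.4 or more in size. Without the 9 keratins that matched a neighbour, the counts were 13 and 10, 13 and 15, and 14 and 14 of 33. Except for those lower in Detroit 562 than in FaDu, each count over the 42 is a larger share of the keratins than of all genes, most of which also differed between the lines. When same-numbered libraries of a line shared a term in the fit (the replicate block), the counts were 20 and 12 (31.8% and 30.5% of all genes), 20 and 18 (31.7% and 34.5%) and 21 and 16 (31% and 34%). The calls added were KRT15 and KRT85, both lower in Detroit 562 than in FaDu, KRT75, lower in Detroit 562 than in SCC-9, and KRT1, KRT2, KRT73 and KRT75, all higher in FaDu than in SCC-9. That block takes up the spread between replicates of a line, so these p-values do not count it, and the values below come from the fit without it.

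Among basal keratins, KRT14 (chr17:41582279-41586921), the type I partner of KRT5, differed in each pair of lines. It was 1.01, 1.41 and 1.27 CPM in untreated Detroit 562, 345, 510.1 and 318 in FaDu, against 2364, 2968 and 3407 in SCC-9. Detroit 562 thus stood near 1 CPM, and the lines did not overlap. The log2 difference was -8.32 ± 0.38 (adjusted p = 5.86e-12) between Detroit 562 and FaDu, -11.21 ± 0.41 (adjusted p = 3.5e-13) between Detroit 562 and SCC-9 and -2.90 ± 0.27 (adjusted p = 4.49e-08) between FaDu and SCC-9, each the first line minus the second with its SE. KRT5 (chr12:52514575-52520687), the type II chain of the basal layer, was 2576, 2248 and 1490.2 CPM in Detroit 562, 5972, 6521 and 3940.4 in FaDu, against 1539.9, 1809.5 and 1800.0 in SCC-9. FaDu was higher than both other lines, which overlapped each other and did not pass the test (0.29 ± 0.31, adjusted p = 0.398, Detroit 562 minus SCC-9). KRT15, a keratin of some basal cells, was 179.9, 151 and 75.3 CPM in Detroit 562, 238, 224 and 115 in FaDu, against 20.7, 32.1 and 50.4 in SCC-9. It was higher than in SCC-9 by 2.48 ± 0.47 (adjusted p = 0.000156) in FaDu and by 1.98 ± 0.47 (adjusted p = 0.00102) in Detroit 562 on the log2 scale.

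The mucosal keratins KRT4 and KRT13 were present in Detroit 562 and FaDu and nearly absent from SCC-9. KRT4 (chr12:52806549-52814551) was 3765, 3828 and 2322 CPM in untreated Detroit 562, 370.0, 240.2 and 60.4 in FaDu, against 0.478, 1.9 and 1.1 in SCC-9. The lines did not overlap, although FaDu spread widely, with replicate 3 lowest. KRT13 (chr17:41500981-41505705), its type I partner, was 228, 205 and 103 CPM in Detroit 562, 252, 289.9 and 68.6 in FaDu, against 0.837, 1.12 and 1.38 in SCC-9. Detroit 562 and FaDu overlapped and did not pass the test (-0.18 ± 0.59, adjusted p = 0.79), while KRT4 differed between them by 3.89 ± 0.66 (adjusted p = 5.4e-05). Against SCC-9, KRT13 was higher by 7.33 ± 0.85 (adjusted p = 6e-07) in Detroit 562 and by 7.52 ± 0.86 (adjusted p = 5.11e-07) in FaDu. KRT78, another suprabasal keratin, was 5.89, 5.13 and 5.33 CPM in Detroit 562, 1.66, 1.08 and 2.37 in FaDu, against 0.0957, 0.356 and 0.382 in SCC-9, which follows the same order. Its raw counts in untreated FaDu, 70, 43 and 101, were close to those of its neighbour KRT79, 70, 33 and 102. In untreated SCC-9 the 2 genes were further apart, at 4, 15 and 15 against 19, 27 and 27. The part of shared reads in these low values was not tested.

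The simple epithelial keratins KRT8, KRT18 and KRT19 were lowest in SCC-9. KRT8 (chr12:52897187-52949954) was 2421, 2354 and 1551 CPM in Detroit 562, 3712, 3175 and 1731 in FaDu, against 577, 519 and 534 in SCC-9. Its partner KRT18 was 1618, 1715 and 1416 CPM in Detroit 562, 2092, 1940.0 and 1056 in FaDu, against 409, 358 and 347 in SCC-9. For both genes SCC-9 lay below Detroit 562 and FaDu, which overlapped. Between these, KRT8 was called lower in Detroit 562, at -0.45 ± 0.23 (adjusted p = 0.0916), and KRT18 was not called, at -0.10 ± 0.18 (adjusted p = 0.636). KRT19 (chr17:41523617-41528308), the smallest keratin, was 3456, 3049 and 2027 CPM in Detroit 562, 1444, 1426 and 743 in FaDu, against 31.98, 37.95 and 50.1 in SCC-9, and the lines did not overlap. KRT7, a keratin of ducts and glands, was 64.2, 65.4 and 64.1 CPM in Detroit 562, 28.7, 32.7 and 17.2 in FaDu, against 37.96, 40.2 and 43.8 in SCC-9. All 3 differences in KRT7 passed the test, with Detroit 562 highest and FaDu lowest.

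Of the wound and activation keratins, KRT17 was highest in FaDu and the other 4 in SCC-9. KRT6A was 688, 626 and 605 CPM in Detroit 562, 263, 354 and 209 in FaDu, against 2507, 2829.8 and 2875 in SCC-9. KRT16, its usual partner, was 4.08, 4.1 and 3.61 CPM in Detroit 562, 33.8, 37.3 and 20.8 in FaDu, against 112, 126 and 141 in SCC-9. SCC-9 was highest for both, while Detroit 562 stood above FaDu in KRT6A and below it in KRT16. KRT17 was 296, 282 and 150.4 CPM in Detroit 562, 3485, 2929.9 and 2044 in FaDu, against 549, 769 and 949 in SCC-9, so that FaDu was highest. KRT6B was 216, 188 and 166 CPM in Detroit 562, 212, 238 and 154 in FaDu, against 476, 552 and 553 in SCC-9, and KRT6C, which shares most with it, 275, 239 and 213 CPM in Detroit 562, 239.8, 273 and 176 in FaDu, against 653, 756 and 743 in SCC-9. Neither passed the test between Detroit 562 and FaDu, and both were higher in SCC-9 than in either.

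The hair shaft keratins were a feature of SCC-9. KRT81 (chr12:52285913-52291534), a hair cortex keratin, was 3901, 4037 and 3999 CPM in untreated SCC-9, 3.44, 3.99 and 3.58 in Detroit 562 and 1.59, 2.54 and 1.76 in FaDu. The log2 difference was -10.08 ± 0.23 (adjusted p = 1.58e-15) for Detroit 562 minus SCC-9 and -10.99 ± 0.24 (adjusted p = 8.74e-16) for FaDu minus SCC-9. KRT86 (chr12:52249300-52309163) reached 582, 623 and 635 CPM in SCC-9 against 17.02, 16.8 and 17.9 in Detroit 562 and shares sequence windows with KRT81. KRT83 was 81.6, 81.7 and 85.8 CPM and KRT85 39.5, 47.5 and 47.7 CPM in SCC-9, and both were below 1.1 CPM in every library of the other lines. Type I hair keratins were scarcer. KRT34, the highest of them in SCC-9, was 5.36, 5.87 and 9.58 CPM there and at most 0.201 CPM in any library of the other lines. KRT34 was thus far below KRT81 in SCC-9 in counts, and levels per length keep that order.

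Differentiation keratins of the epidermis were scarce in each line. KRT10 was 20.2, 19.9 and 16.2 CPM in untreated Detroit 562, 40.2, 28.7 and 25.7 in FaDu, against 29.9, 26.8 and 29.7 in SCC-9. KRT1, its partner, is in the matched run and was at most 4.88 CPM in any library. KRT9, a keratin of palm and sole skin, was 0.566, 0.489 and 0.323 CPM in Detroit 562, 4.25, 5.02 and 3.52 in FaDu, against 7.58, 6.63 and 8.26 in SCC-9. KRT80, made in many epithelia, was 477, 539.9 and 598 CPM in Detroit 562, 239, 180.2 and 162 in FaDu, against 125, 119.8 and 123 in SCC-9, without overlap. KRT23 was 3.25, 3.34 and 2.29 CPM in Detroit 562, 1.12, 1.08 and 0.117 in FaDu, against 6.05, 9.96 and 18.02 in SCC-9, highest in SCC-9 and lowest in FaDu.

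The balance of the types was compared as the ratio of summed type I to summed type II counts per kb. In control libraries it ranged from 0.748 to 0.777 in Detroit 562, from 1.04 to 1.13 in FaDu and from 0.352 to 0.463 in SCC-9. With the length of the canonical transcript in place of all exons, the means were 0.813, 0.973 and 0.51, in the same order. SCC-9 was lowest by each measure, with KRT81 as its leading type II chain.

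Single partner pairs were far less even. KRT8 to KRT18 stayed between 0.489 to 0.667 per kb in untreated Detroit 562, 0.73 to 0.791 in FaDu and 0.629 to 0.687 in SCC-9. The level of this ratio depends on the length used, which was 6.88 kb for KRT8 and 3.07 kb for KRT18. KRT5 to KRT14 instead ranged from 642 to 1387 in Detroit 562 over 6.76 to 9.44 in FaDu to 0.288 to 0.355 in SCC-9. KRT4 to KRT13 was 16.7 to 22.8 in Detroit 562 and 0.839 to 1.49 in FaDu. KRT6A to KRT16 was 129 to 143, 6.57 to 8.49 and 17.3 to 18.9 in Detroit 562, FaDu and SCC-9. The pairs KRT6B to KRT17 and KRT7 to KRT19 lay between 0.0791 and 1.43 and between 0.0108 and 0.693 over the control libraries of all lines, and KRT1 to KRT10 between 0.0223 and 0.21. Across these lines KRT8 to KRT18 had the narrowest range of these ratios and KRT5 to KRT14 the widest.

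Keratin mRNA was lower with HGF in Detroit 562. Of the 42 tested keratins, 21 were called lower and 0 higher, against 11.7% and 6.16% of all genes tested, and the median log2 fold change of the keratins was -0.80 against -0.01 for all genes. Without the 9 that matched a neighbour, 12 of 33 were called lower. These 12 still include KRT3, KRT76 and KRT79, low-count genes of the same cluster that the rule did not take. The fall covered basal (KRT5, KRT15), simple (KRT8, KRT19) and mucosal (KRT13) keratins, while KRT6A, KRT7, KRT10, KRT14 and KRT17 were not called. In all 3 same-numbered pairs of libraries, 32 keratins were lower with HGF (32.3% of all genes), and in 25 the HGF libraries lay below all control libraries (20.1% of all genes). The share of all counts on keratins was 0.917%, 0.95% and 0.545% with HGF.

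The count for Detroit 562 rose to 27 of 42, again all lower, when the replicate number was a block (14.4% of all genes lower and 7.13% higher). It was 13 without HGF replicate 3, 15 without control replicate 1 and 16 without control replicate 2, and 20 to 22 without each of the other libraries. DESeq2 called 22. The replicate 3 libraries had the lowest share of keratin counts in both arms.

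KRT15 and KRT13 had the largest fold changes among the called keratins. KRT15 (chr17:41513743-41522529) was 179.9, 151 and 75.3 CPM in the control libraries and 35.2, 35.7 and 14.1 CPM with HGF. The arms did not overlap, and the log2 fold change was -2.25 ± 0.47 (SE, adjusted p = 0.00405). KRT13 was 228, 205 and 103 CPM in the control libraries and 51.6, 58.6 and 22.2 CPM with HGF. Its arms were also apart, and the log2 fold change was -2.02 ± 0.62 (SE, adjusted p = 0.0258), which without HGF replicate 3 was -1.70, adjusted p = 0.103.

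KRT4, the partner of KRT13, is the most abundant keratin in counts in untreated Detroit 562. It was 3765, 3828 and 2322 CPM in the control libraries and 1493, 1982 and 887 CPM with HGF. The libraries of the arms did not overlap, yet the fold change passed the test only with the block: -1.18 ± 0.60 (SE, adjusted p = 0.156) without it and -1.22 ± 0.14 (SE, adjusted p = 7.73e-06) with it. Per kb, KRT4 to KRT13 was 29.3 to 40.4 with HGF, above its range in control libraries.

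KRT5 was 2576, 2248 and 1490.2 CPM in the control libraries and 1482, 1312 and 593 CPM with HGF, with a log2 fold change of -0.90 ± 0.31 (SE, adjusted p = 0.0451). Every HGF library lay below every control library, but the nearest, HGF replicate 1 and control replicate 3, were close. The call was lost without control replicate 1 (-0.73, adjusted p = 0.182), control replicate 2 (-0.85, adjusted p = 0.121) or HGF replicate 3 (-0.59, adjusted p = 0.171). KRT14 remained near 1 CPM in this line (1.01, 1.41 and 1.27 CPM in the control libraries and 0.94, 0.852 and 1.43 CPM with HGF).

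Of the simple keratins, KRT19 was 3456, 3049 and 2027 CPM in the control libraries and 1851, 1751 and 963 CPM with HGF, with a log2 fold change of -0.90 ± 0.34 (SE, adjusted p = 0.062). The arms were apart, but without control replicate 1 (-0.74, adjusted p = 0.217), control replicate 2 (-0.85, adjusted p = 0.151) or HGF replicate 3 (-0.66, adjusted p = 0.226) it was not called. KRT8 was 2421, 2354 and 1551 CPM in the control libraries and 1407, 1415 and 911 CPM with HGF, with -0.76 ± 0.23 (SE, adjusted p = 0.025). It was not called without control replicate 1 (-0.65, adjusted p = 0.114) or HGF replicate 3 (-0.58, adjusted p = 0.115). KRT18, its partner, was 1618, 1715 and 1416 CPM in the control libraries and 1369, 1435 and 1134 CPM with HGF, with a log2 fold change of -0.27 ± 0.18 (SE, adjusted p = 0.294). Its arms overlapped, and KRT8 to KRT18 per kb was 0.358 to 0.458 with HGF, below the control range. KRT7 was 64.2, 65.4 and 64.1 CPM in the control libraries and 68.6, 66.7 and 52.03 CPM with HGF and was not called (-0.05 ± 0.21, adjusted p = 0.892).

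Among wound and activation keratins only KRT16 was called. KRT16 was 4.08, 4.1 and 3.61 CPM in the control libraries and 1.73, 2.44 and 1.55 CPM with HGF, with a log2 fold change of -1.04 ± 0.39 (SE, adjusted p = 0.0586), at a level of under 5 CPM. Its call was lost without control replicate 1 (-1.01, adjusted p = 0.15), control replicate 2 (-1.01, adjusted p = 0.13), HGF replicate 1 (-0.97, adjusted p = 0.135) or HGF replicate 3 (-0.92, adjusted p = 0.175). KRT6A was 688, 626 and 605 CPM in the control libraries and 753, 681 and 492 CPM with HGF (0.01 ± 0.24, adjusted p = 0.992), and KRT17 was 296, 282 and 150.4 CPM in the control libraries and 295, 332 and 154 CPM with HGF (0.10 ± 0.32, adjusted p = 0.849). The arms of both genes overlapped. KRT6B was 216, 188 and 166 CPM in the control libraries and 187, 163 and 107 CPM with HGF and KRT6C 275, 239 and 213 CPM in the control libraries and 247, 215 and 142 CPM with HGF, with log2 fold changes of -0.32 ± 0.24 (SE, adjusted p = 0.355) and -0.27 ± 0.24 (SE, adjusted p = 0.444). The share of wound and activation keratins among keratin counts was 9.36% ± 0.982 in control and 14.8% ± 0.757 (SD, n = 3) in HGF libraries.

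The epithelial keratin KRT80, the hair keratin KRT86 and the palm and sole keratin KRT9 were also called. KRT80 was 477, 539.9 and 598 CPM in the control libraries and 436, 458 and 329 CPM with HGF, with a log2 fold change of -0.40 ± 0.14 (SE, adjusted p = 0.049), at the threshold of 0.4 and lost without control replicate 2 (-0.40, adjusted p = 0.116), control replicate 3 (-0.32, adjusted p = 0.138) or HGF replicate 3 (-0.27, adjusted p = 0.214). KRT86 was 17.02, 16.8 and 17.9 CPM in the control libraries and 13.8, 12.7 and 9.43 CPM with HGF, with -0.52 ± 0.15 (SE, adjusted p = 0.0189), and was under the fold threshold without HGF replicate 3 (-0.37, adjusted p = 0.0872). The extent of KRT86 overlaps that of KRT7, and the part of shared reads in its counts was not tested. KRT9 was 0.566, 0.489 and 0.323 CPM in the control libraries and 0.198, 0.17 and 0.243 CPM with HGF, with -1.18 ± 0.40 (SE, adjusted p = 0.0411). These are among the smallest values tested, with 6 to 24 raw counts a library, and the call was lost without control replicate 1 (-0.99, adjusted p = 0.173), control replicate 2 (-1.14, adjusted p = 0.103) or HGF replicate 2 (-1.07, adjusted p = 0.107).

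Beside KRT4, 5 more keratins were called only with the block. KRT23 was 3.25, 3.34 and 2.29 CPM in the control libraries and 1.61, 1.87 and 1.19 CPM with HGF, with a blocked log2 fold change of -0.93 ± 0.13 (SE, adjusted p = 3.64e-05) against -0.92 ± 0.53 (SE, adjusted p = 0.214) without the block. KRT81 was 3.44, 3.99 and 3.58 CPM in the control libraries and 3.14, 2.75 and 2.1 CPM with HGF (-0.45 ± 0.11, adjusted p = 0.00402 with the block, -0.45 ± 0.21, adjusted p = 0.117 without). KRT75 was 2.1, 1.93 and 1.16 CPM in the control libraries and 1.24, 1.05 and 0.578 CPM with HGF (-0.85 ± 0.25, adjusted p = 0.0126 with, -0.84 ± 0.49, adjusted p = 0.215 without). All 3 were lower with HGF in each of the 3 pairs, and the arms of KRT75 overlapped. KRT85 was 0.636, 0.543 and 0.404 CPM in the control libraries and 0.544, 0.256 and 0.183 CPM with HGF (-0.66 ± 0.28, adjusted p = 0.0652 with, -0.64 ± 0.35, adjusted p = 0.193 without). KRT40 was 1.51, 1.71 and 0.754 CPM in the control libraries and 1.04, 0.965 and 0.578 CPM with HGF (-0.61 ± 0.27, adjusted p = 0.0832 with, -0.61 ± 0.36, adjusted p = 0.223 without). Both were under 2 CPM and their arms overlapped.

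The other 12 calls in Detroit 562 were in keratins of low count in the type II cluster, most of which lie beside another of the 12. They are given as raw counts. KRT1 had 207, 132 and 106 in the control libraries and 67, 67 and 39 with HGF. KRT2 had 212, 133 and 107 in the control libraries and 69, 68 and 40 with HGF. KRT77 had 208, 129 and 109 in the control libraries and 67, 67 and 39 with HGF. In each the HGF libraries were below the control libraries, by nearly the same numbers. KRT71 had 163, 95 and 93 in the control libraries and 61, 43 and 45 with HGF. KRT72 had 196, 109 and 99 in the control libraries and 66, 52 and 44 with HGF. KRT73 had 201, 115 and 100 in the control libraries and 66, 56 and 41 with HGF. These root sheath keratins showed the same step. KRT74 had 169, 99 and 92 in the control libraries and 63, 45 and 44 with HGF. Log2 fold changes over this run of 7 were -1.25 to -1.12, and each was called. KRT76, the next gene, had 270, 186 and 143 in the control libraries and 88, 97 and 45 with HGF and KRT3 392, 291 and 229 in the control libraries and 145, 148 and 76 with HGF, with -1.27 ± 0.29 (SE, adjusted p = 0.00629) and -1.20 ± 0.25 (SE, adjusted p = 0.0042). KRT79, on the far side of KRT4, had 287, 203 and 175 in the control libraries and 110, 109 and 73 with HGF, with -1.08 ± 0.26 (SE, adjusted p = 0.0085). KRT3, KRT76 and KRT79 lie around KRT4, which was itself called lower with the block. KRT84 had 59, 41 and 29 in the control libraries and 24, 16 and 13 with HGF and KRT82 59, 39 and 27 in the control libraries and 23, 21 and 16 with HGF, with -1.17 ± 0.31 (SE, adjusted p = 0.0129) and -0.95 ± 0.32 (SE, adjusted p = 0.0388). The call of KRT82 was lost without control replicate 1 (-0.69, adjusted p = 0.208) or HGF replicate 3 (-0.87, adjusted p = 0.116).

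**Figure D3:**
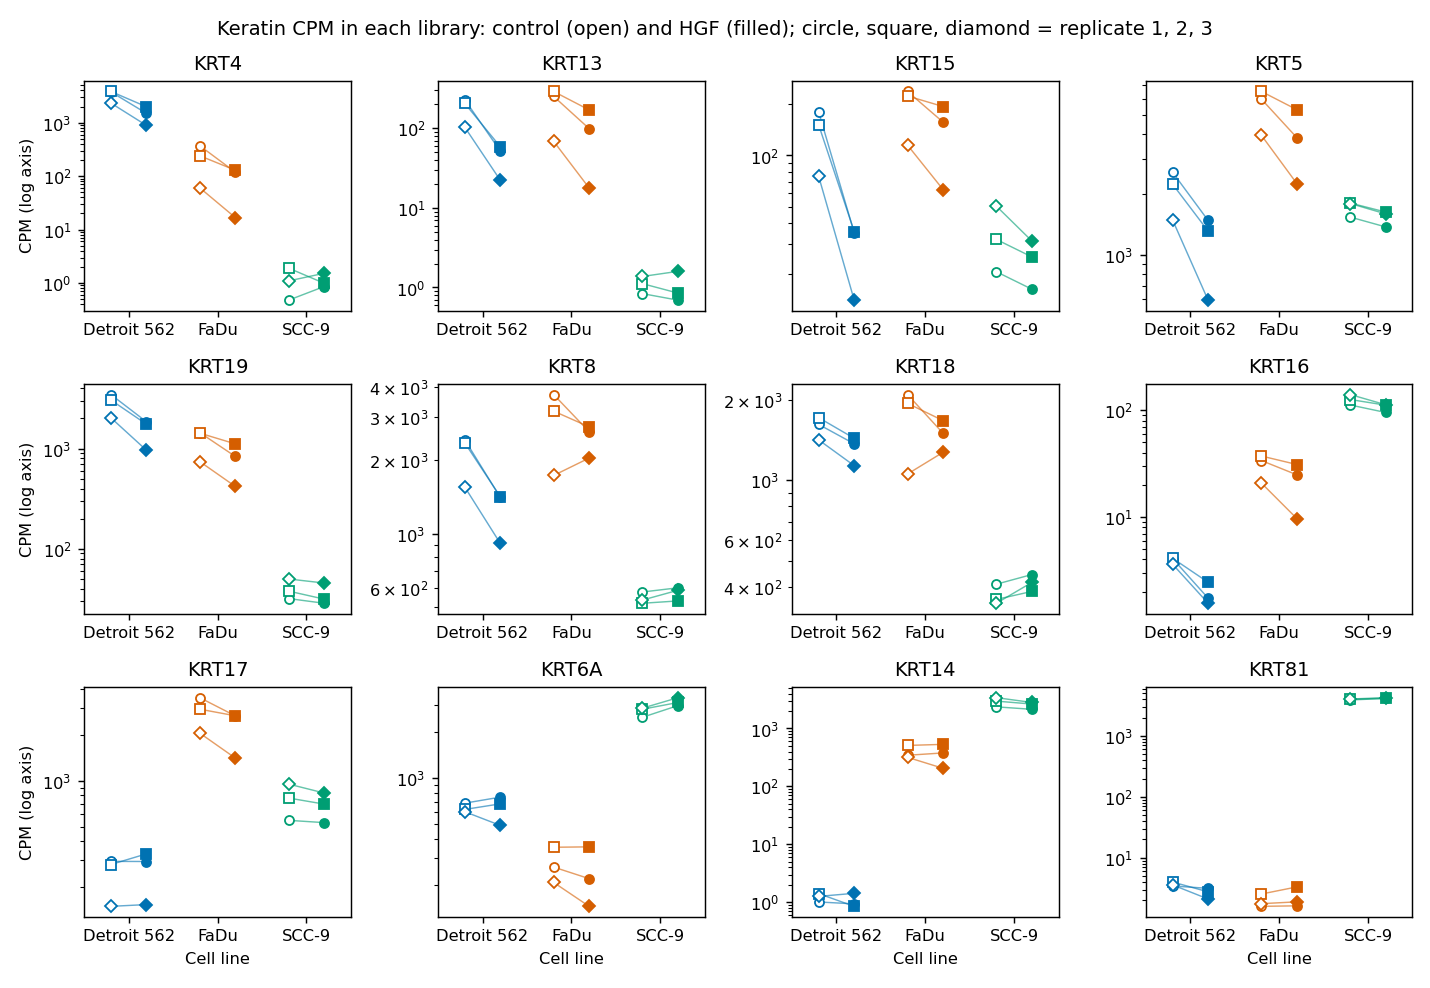
CPM (log axis, with its own range in each panel) of 12 keratins in each library of the 3 lines, open symbols for control and filled for HGF, with circles, squares and diamonds for replicates 1, 2 and 3 and a line joining each same-numbered pair. In Detroit 562 all 3 joining lines slope down for KRT4, KRT13, KRT15, KRT5, KRT19, KRT8 and KRT16, and diamonds lie lowest in Detroit 562 and FaDu for most of these genes.

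In FaDu the same test called 0 of 42 keratins in either direction (0.0258% of all genes higher, 0% lower), and DESeq2 called 0 with or without its prior. With the replicate block, 15 were called lower and 0 higher, against 3.6% and 2% of all genes. In the same blocked fit 1 of 8 epithelial markers (ELF3), 1 of 5 squamous (TRIM29), 1 of 6 fibroblast (COL1A1) and 2 of 4 endothelial markers (VWF and CDH5) were lower, and CD68 of the leukocyte markers was higher. The part of these genes in the keratin result was not tested. In 26 keratins the HGF library was lower in all 3 pairs (23.3% of all genes), and in 8 the HGF libraries lay below all controls (5.36%). Of the 15, 13 are not among the keratins that matched a neighbour. Replicate 3 had the lowest share of keratin counts in both arms of FaDu, and the arms overlapped for the other 34.

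KRT4 in FaDu was 370.0, 240.2 and 60.4 CPM in the control libraries and 119, 129 and 16.8 CPM with HGF. Each HGF library was below the control of its number, and the blocked log2 fold change was -1.43 ± 0.15 (SE, adjusted p = 6.35e-05), against -1.34 ± 0.61 (SE, adjusted p = 0.609) without the block. KRT13 was 252, 289.9 and 68.6 CPM in the control libraries and 98.9, 169.9 and 17.8 CPM with HGF. It too was lower in each pair, with -1.31 ± 0.14 (SE, adjusted p = 7.82e-05) in the blocked and -1.09 ± 0.60 (SE, adjusted p = 0.641) in the unblocked fit. KRT23 was 1.12, 1.08 and 0.117 CPM in the control libraries and 0.325, 0.427 and 0.0726 CPM with HGF, with -1.48 ± 0.23 (SE, adjusted p = 0.000906) in the blocked fit. Its unblocked estimate was -1.47 ± 0.76 (SE, adjusted p = 0.63), with at most 1.12 CPM in any library.

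Basal and simple keratins moved less. KRT19 was 1444, 1426 and 743 CPM in the control libraries and 835, 1115 and 419.7 CPM with HGF (-0.66 ± 0.08, adjusted p = 0.000125 blocked, -0.61 ± 0.34, adjusted p = 0.641 unblocked). KRT5 was 5972, 6521 and 3940.4 CPM in the control libraries and 3831, 5288 and 2259.8 CPM with HGF (-0.58 ± 0.10, adjusted p = 0.00147 blocked, -0.53 ± 0.31, adjusted p = 0.65 unblocked). KRT15 was 238, 224 and 115 CPM in the control libraries and 157, 194 and 63.1 CPM with HGF (-0.55 ± 0.10, adjusted p = 0.00225 blocked, -0.48 ± 0.45, adjusted p = 0.77 unblocked). Each of the 3 was lower in all 3 pairs. KRT8 was 3712, 3175 and 1731 CPM in the control libraries and 2613, 2737 and 2039 CPM with HGF and was not called in either fit (-0.16 ± 0.09, adjusted p = 0.29 blocked). In replicate 3 KRT8 was higher with HGF, as was KRT18, at 2092, 1940.0 and 1056 CPM in the control libraries and 1499, 1672 and 1273 CPM with HGF. KRT14 was 345, 510.1 and 318 CPM in the control libraries and 378, 532 and 205 CPM with HGF, without a call.

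The wound and activation keratins KRT16, KRT6B and KRT6C were called in FaDu with the block. KRT16 was 33.8, 37.3 and 20.8 CPM in the control libraries and 24.9, 31.1 and 9.65 CPM with HGF (-0.56 ± 0.11, adjusted p = 0.00408 blocked, -0.49 ± 0.29, adjusted p = 0.648 unblocked). KRT6B was 212, 238 and 154 CPM in the control libraries and 144, 213 and 91.8 CPM with HGF (-0.48 ± 0.09, adjusted p = 0.00401 blocked, -0.43 ± 0.24, adjusted p = 0.641 unblocked). KRT6C was 239.8, 273 and 176 CPM in the control libraries and 166, 249 and 105 CPM with HGF (-0.47 ± 0.09, adjusted p = 0.00559 blocked, -0.41 ± 0.24, adjusted p = 0.65 unblocked). KRT6B and KRT6C share sequence windows as long as a read, so these values may not be independent. KRT6A was 263, 354 and 209 CPM in the control libraries and 221, 356 and 145 CPM with HGF, and its replicate 2 libraries were nearly equal (-0.25 ± 0.09, adjusted p = 0.0834 blocked). KRT17 was 3485, 2929.9 and 2044 CPM in the control libraries and 2649.7, 2653 and 1403 CPM with HGF, under the fold threshold in both fits (-0.36 ± 0.07, adjusted p = 0.00289 blocked).

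Low-level keratins made up the rest of the blocked calls in FaDu. KRT9 was 4.25, 5.02 and 3.52 CPM in the control libraries and 3.64, 3.5 and 1.72 CPM with HGF (-0.55 ± 0.15, adjusted p = 0.025 blocked, -0.53 ± 0.22, adjusted p = 0.584 unblocked). KRT75 was 3.97, 6.45 and 2.98 CPM in the control libraries and 2.94, 6.06 and 1.23 CPM with HGF (-0.48 ± 0.18, adjusted p = 0.0973 blocked, -0.39 ± 0.41, adjusted p = 0.801 unblocked). KRT74 was 2.35, 2.03 and 2.32 CPM in the control libraries and 1.53, 1.53 and 1.11 CPM with HGF (-0.69 ± 0.20, adjusted p = 0.0418 blocked, -0.68 ± 0.24, adjusted p = 0.537 unblocked). All 3 were below 7 CPM. KRT83, KRT84 and KRT85, hair shaft keratins at or below about 1 CPM in FaDu, completed the list. KRT83 was 0.665, 1.05 and 0.681 CPM in the control libraries and 0.417, 0.779 and 0.435 CPM with HGF (-0.56 ± 0.19, adjusted p = 0.0849 blocked). KRT84 was 0.807, 0.979 and 1.03 CPM in the control libraries and 0.417, 0.956 and 0.363 CPM with HGF (-0.73 ± 0.25, adjusted p = 0.0758 blocked). KRT85 was 0.641, 0.829 and 0.634 CPM in the control libraries and 0.278, 0.604 and 0.266 CPM with HGF (-0.89 ± 0.24, adjusted p = 0.0289 blocked). None of the 3 was called without the block (-0.56 ± 0.26, adjusted p = 0.614, -0.71 ± 0.30, adjusted p = 0.588 and -0.88 ± 0.32, adjusted p = 0.545).

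In SCC-9 edgeR called 0 of 42 keratins (0% of all genes in either direction), and DESeq2 called 0 with or without its prior. With the block 1 was called lower and 0 higher, against 1.41% and 0.562% of all genes. The median log2 fold change over keratins was 0.07. In 9 keratins the HGF library was lower in all 3 pairs and in 14 it was higher (24.6% and 23.9% of all genes). In 1 keratin, KRT80, all HGF libraries lay below all controls (9.12% of all genes) and in 7 above (8.3%). KRT80 was 125, 119.8 and 123 CPM in the control libraries and 97.6, 95.9 and 97.1 CPM with HGF, a log2 fold change of -0.34 ± 0.14 (SE, adjusted p = 1.0).

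The call with the block in SCC-9 was KRT15. It was 20.7, 32.1 and 50.4 CPM in the control libraries and 16.4, 25.3 and 31.4 CPM with HGF. The arms overlapped, each pair was lower with HGF, and the blocked estimate was -0.46 ± 0.11 (SE, adjusted p = 0.0316) against -0.50 ± 0.46 (SE, adjusted p = 1.0) without the block. KRT15 was the 1 keratin called lower with HGF in the blocked fit of each of the 3 lines. In SCC-9 the control and HGF libraries of replicate 2 did not deviate together over the keratins (r = -0.579, against 0.714 and 0.566 for replicates 1 and 3), and 1 of 8 epithelial markers, ELF3, was also lower with the block. The leading keratins of SCC-9 were not called: KRT81 was 3901, 4037 and 3999 CPM in the control libraries and 4121, 4254 and 4167 CPM with HGF, with 0.07 ± 0.15 (SE, adjusted p = 1.0). KRT14 was 2364, 2968 and 3407 CPM in the control libraries and 2144, 2644 and 2812 CPM with HGF, with -0.20 ± 0.25 (SE, adjusted p = 1.0). KRT6A was 2507, 2829.8 and 2875 CPM in the control libraries and 2989, 3132 and 3368 CPM with HGF, with 0.21 ± 0.24 (SE, adjusted p = 1.0). KRT81 and KRT6A were higher in all 3 HGF libraries than in all 3 controls, without passing the test. KRT5 was 1539.9, 1809.5 and 1800.0 CPM in the control libraries and 1375, 1631 and 1597 CPM with HGF, with -0.16 ± 0.31 (SE, adjusted p = 1.0). KRT17 was 549, 769 and 949 CPM in the control libraries and 531, 701 and 829 CPM with HGF, with -0.14 ± 0.32 (SE, adjusted p = 1.0). KRT4 and KRT13 stayed at or under 2 CPM in each SCC-9 library. Of the simple epithelial and wound keratins, 0 were called in either fit. KRT8 was 577, 519 and 534 CPM in the control libraries and 600.0, 530.1 and 586 CPM with HGF. KRT18 was 409, 358 and 347 CPM in the control libraries and 444, 384 and 415 CPM with HGF. KRT19 was 31.98, 37.95 and 50.1 CPM in the control libraries and 28.7, 31.6 and 45.7 CPM with HGF. For KRT16 the levels were 112, 126 and 141 CPM in the control libraries and 95.6, 112 and 113 CPM with HGF.

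**Figure D4:**
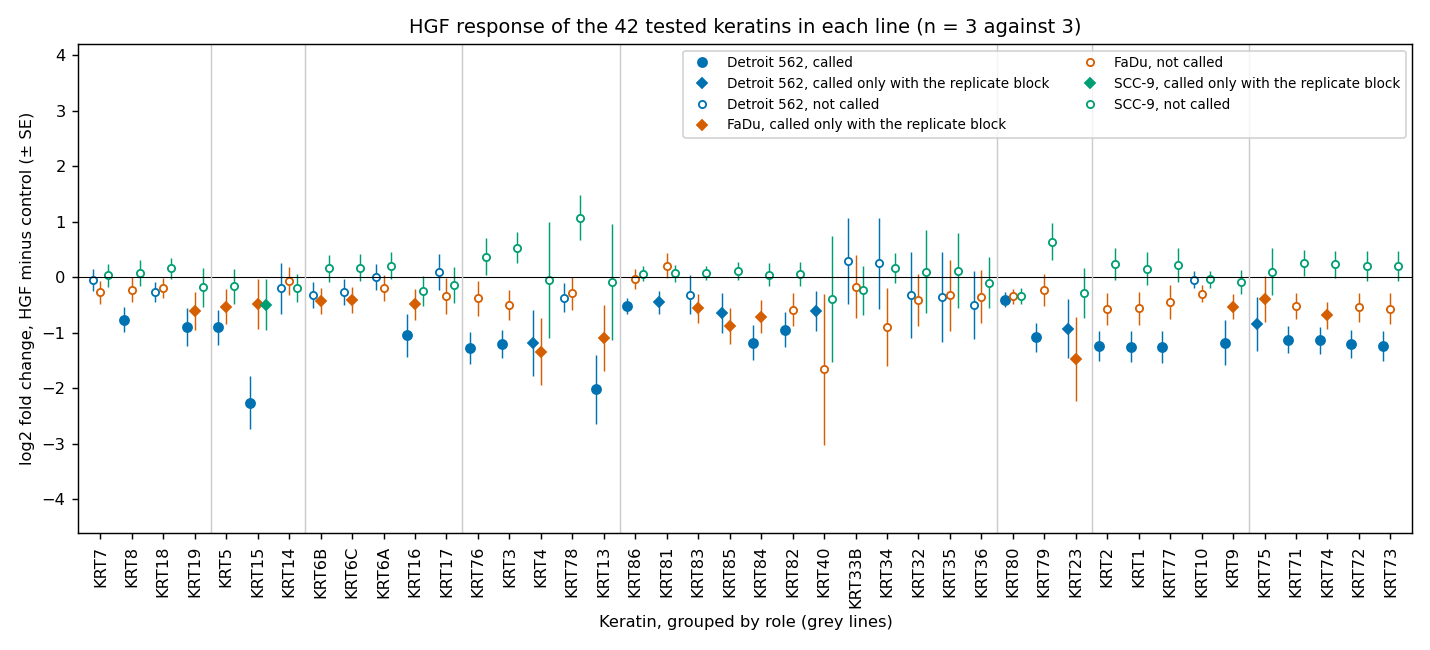
Log2 fold change (HGF minus control, unblocked fit, bars are ± SE) of the 42 tested keratins in Detroit 562, FaDu and SCC-9, grouped by role between grey lines. Filled circles were called in the unblocked fit, diamonds only with the replicate block and open circles in neither, and 21 Detroit 562 keratins are filled circles, all below 0, while the SCC-9 points lie around 0.

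The difference of the HGF response between lines was tested by an interaction, called at an adjusted p below 0.1. Without the block, 0 of 42 keratins differed between Detroit 562 and FaDu (0.239% of all genes), and 0 differed between FaDu and SCC-9 (0% of all genes). DESeq2 called 0 in both. Between Detroit 562 and SCC-9, 3 differed (0.924% of all genes). They were KRT3, at -1.74 ± 0.38 (adjusted p = 0.0695), KRT71, at -1.38 ± 0.34 (adjusted p = 0.0991), and KRT79, at -1.72 ± 0.42 (adjusted p = 0.0991), each more negative in Detroit 562. All 3 are low-count genes of the type II cluster described above, and DESeq2 called 12. Without 1 library the count was 0 for each of Detroit 562 control replicates 1 and 2, HGF replicates 1 and 3, SCC-9 control replicates 1 and 3 and all SCC-9 HGF replicates. It was 14 without Detroit 562 control replicate 3. The counts by DESeq2 and without 1 library stand without the share of all genes in the same fit. Whether these changes are particular to keratins was not tested.

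With the block, 7 keratins differed between Detroit 562 and FaDu (19.1% of all genes), 29 between Detroit 562 and SCC-9 (26.9%) and 5 between FaDu and SCC-9 (1.32%). The count between Detroit 562 and FaDu is a smaller share of the tested keratins than of all genes, and the other counts are larger shares. KRT15 had the largest difference between Detroit 562 and FaDu, at -1.72 ± 0.14 (adjusted p = 2.42e-05), and its value between Detroit 562 and SCC-9 was -1.81 ± 0.15 (adjusted p = 1.03e-05). KRT13 and KRT8 were also more negative in Detroit 562 than in FaDu, at -0.74 ± 0.20 (adjusted p = 0.0289) and -0.60 ± 0.13 (adjusted p = 0.00867), and KRT5, KRT81 and KRT86 made up the rest of those lower in Detroit 562. KRT17 differed in the other direction, at 0.45 ± 0.09 (adjusted p = 0.00742). The 5 between FaDu and SCC-9 were KRT6B, KRT6C, KRT19, KRT23 and KRT85, each more negative in FaDu. For KRT4 the response differed by 0.21 ± 0.20 (adjusted p = 0.533) between Detroit 562 and FaDu with the block and was not called.

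Promoter sequence was at hand for 34 of the 55 keratins (RefSeq, GRCh38.p14), which do not include KRT13, KRT15 or KRT19. The 250 bases before the listed start are shown for KRT4, KRT5 and KRT8, the 3 abundant type II keratins that were lower with HGF in Detroit 562 in at least 1 fit. Capitals mark CACCC or its complement GGGTG, which Kruppel-like factors can bind. All 3 lie on the minus strand, at chr12:52814117-52814366, chr12:52520395-52520644 and chr12:52926470-52926719. The stretches of KRT4 and KRT5 lie near the upstream end of their rows, whereas that of KRT8 lies far inside its row (chr12:52897187-52949954). Whether the listed starts are those used in these cells was not tested.
KRT4: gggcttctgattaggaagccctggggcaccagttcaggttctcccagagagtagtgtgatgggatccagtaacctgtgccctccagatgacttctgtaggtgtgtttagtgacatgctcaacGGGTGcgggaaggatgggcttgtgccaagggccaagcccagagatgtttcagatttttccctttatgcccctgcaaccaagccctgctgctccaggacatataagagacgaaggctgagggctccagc
KRT5: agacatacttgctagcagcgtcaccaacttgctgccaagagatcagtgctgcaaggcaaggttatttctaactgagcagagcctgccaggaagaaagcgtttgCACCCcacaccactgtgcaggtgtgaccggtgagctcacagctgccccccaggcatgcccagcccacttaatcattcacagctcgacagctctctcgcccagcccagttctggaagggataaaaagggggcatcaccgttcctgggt
KRT8: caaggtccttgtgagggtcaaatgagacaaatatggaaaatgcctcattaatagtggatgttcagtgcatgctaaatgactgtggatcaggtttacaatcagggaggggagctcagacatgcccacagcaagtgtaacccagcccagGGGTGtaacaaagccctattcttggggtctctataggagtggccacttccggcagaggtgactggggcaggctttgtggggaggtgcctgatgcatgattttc
Each holds 1 such match, which starts 128 bases before the listed start in KRT4, 147 in KRT5 and 103 in KRT8. The 34 keratins have 38 promoters, as KRT40 and KRT85 have several. In the 250 bases before the start, 29 of the 38 (76.3%) held CACCC on either strand, against 54.7% of all 35116 promoters. TATAAA, the core of a TATA box, was in 21 of the 38 (10.7% of all promoters) and GGGCGG, the GC box, in 4 (42.6%). TGANTCA, a site of AP-1, was in 0 of 38 (6.57%). The other 3 motifs have no match in the promoters shown, so no match there overlaps another. Of the 12 keratins with a promoter that were called lower in Detroit 562 without the block, 8 held CACCC and 6 TATAAA in at least 1 promoter. Of the 10 others tested, 10 and 5 did. These others include KRT4, KRT40, KRT75 and KRT85, which were called lower with the block. Most of the 12 are low-count keratins of the type II cluster described above. A match is only a match of letters in this window.

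Other genes of the keratin network were followed in lists. Of 13 genes that anchor or link keratin filaments, all tested, 4 were called lower and 2 higher with HGF in Detroit 562 (11.7% and 6.16% of all genes), with a list median of -0.02 against -0.01 over all genes. The lower ones belong to desmosomes and the cornified envelope scaffold: PKP1, at -0.73 ± 0.22 (adjusted p = 0.0259), JUP, at -0.45 ± 0.11 (adjusted p = 0.0104), EVPL, at -0.49 ± 0.09 (adjusted p = 0.00233), and PPL, at -0.70 ± 0.15 (adjusted p = 0.0047). DSP, which ties keratins to desmosomes, was -0.39 ± 0.13 (adjusted p = 0.0436), just under the fold threshold. The higher ones belong to the hemidesmosome, namely ITGA6, at 0.67 ± 0.18 (adjusted p = 0.0144), and COL17A1, at 0.53 ± 0.19 (adjusted p = 0.0482). Other members of both structures were not called. ITGB4 of the hemidesmosome had means of 822 CPM in control and 843 CPM in HGF libraries. The desmosomal PKP2 had 153 and 173 CPM and PKP3 252 and 250 CPM. In FaDu 0 of the 13 were called, and with the block PKP1 was lower and ITGA6 and PLEC higher (3.6% and 2% of all genes). In SCC-9 none was called in either fit.

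Of 14 regulators of keratin genes, 4 were called lower and 0 higher in Detroit 562 (11.7% and 6.16% of all genes), with a list median of -0.37. They were ZNF750, a factor of late squamous differentiation, at -2.15 ± 0.45 (adjusted p = 0.00386), GRHL3, at -1.66 ± 0.30 (adjusted p = 0.00197), GRHL1, at -0.73 ± 0.17 (adjusted p = 0.00648), and the retinoic acid receptor gene RARG, at -0.68 ± 0.18 (adjusted p = 0.0112). TP63, the master factor of squamous cells, was -0.37 ± 0.13 (adjusted p = 0.0482), under the fold threshold. FaDu had 0 without the block, and ZNF750, GRHL3 and NOTCH1 lower with it (3.6% of all genes). In SCC-9, 0 were called without the block, and OVOL1 and RARG were lower with it (1.41% of all genes). The values of keratins and regulators come from the same libraries, and no relation between them was tested.

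Of 16 other intermediate filament genes listed, 11 were tested, and 0 were called with HGF in Detroit 562 in either fit (median -0.22). VIM, the filament gene of mesenchymal cells, was at most 0.426 CPM in any Detroit 562 library, and its mean was 0.521 CPM in untreated FaDu and 204 CPM in untreated SCC-9. Its log2 fold change with HGF was 0.84 ± 1.05 (adjusted p = 0.592) in Detroit 562 and 0.31 ± 0.28 (adjusted p = 1.0) in SCC-9. Beside the fall of keratins in Detroit 562, the epithelial markers summed to 2099 to 2242 CPM in control and 1887 to 1987 CPM in HGF libraries, with 3 of 8 lower (CDH1, CLDN4 and ELF3) and 0 higher, against 11.7% and 6.16% of all genes. The squamous markers summed to 628 to 799 and 511 to 534 CPM, with 2 of 5 lower (DSC3 and TRIM29) and 0 higher, and DSG3 also lower with the block. Of the fibroblast markers, COL1A1 and COL1A2 were lower and summed levels were 29.8 to 54.3 and 14.97 to 27.6 CPM, VWF of the endothelial markers was lower, and CD68 of the leukocyte markers was higher. The part of these genes in the keratin result was not tested.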

How the data were processed

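Polyadenylated RNA of 18 libraries was sequenced, and the authors deposited 1 table of raw counts per gene, which is the unit used here. The submitters' processing notes and the study's methods name bcl2fastq 2.20.0.422, cutadapt 1.16, STAR 2.5.2b and bedtools, with counts taken per gene extent on the opposite strand and no option named for splitting spliced alignments. Reads that touch several genes could thus be counted for each of them.

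Libraries were grouped by their labels. Counts were filtered by expression (15475 of 19901 genes kept), scaled by TMM and fitted with edgeR 4.0.16 (R 4.3.3, quasi-likelihood test, all 6 groups in 1 fit, which shares the estimate of spread), with p-values adjusted by Benjamini-Hochberg across the whole table and thresholds of 0.1 for the adjusted p and 0.4 for the absolute log2 fold change. Interactions between lines used the adjusted p alone. DESeq2 1.42.0 served as an alternative. The edgeR fits, not those of DESeq2, were run on simulated counts with the same spread for all genes. The simulated counts held no differences between untreated lines or between replicates, unlike the data here, so they check the code alone. Total counts of 35304770 to 44003970 limit precision for keratins under about 1 CPM. Same-numbered control and HGF libraries deviated together over all genes (r = 0.376 to 0.636 in Detroit 562, 0.567 to 0.707 in FaDu and 0.436 to 0.546 in SCC-9). For different numbers r was -0.642 to 0.178 in FaDu and -0.354 to -0.154 in SCC-9. In Detroit 562 it was -0.539 to 0.349, with 0.349 and 0.221 between replicates 1 and 2. The numbers thus pair the libraries in FaDu and SCC-9, while in Detroit 562 only replicate 3 stood clearly apart. The fit with the replicate block stands beside a result where it changes the call. Over the tested keratins alone, r of same-numbered libraries was positive for 8 of 9 pairs and -0.579 for SCC-9 replicate 2. The comparisons of lines share control libraries.

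The members and gene lists were chosen with earlier results of these data known. All 55 keratins are accounted for, and values per library are given by rule for each keratin called with HGF in the unblocked or blocked fit, for the 8 highest per kb over all libraries and for members of the partner pairs. Others are named where they show how a line differs. Alternatives were other scalings, filters, tools, sets of libraries, the summing of near-identical keratins, leaving out each library, and 2 chosen after seeing the data, namely leaving out keratins that match a neighbour's count and using the canonical transcript's length.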

Additional observations from a re-analysis of the deposited data

Results flagged for a closer look

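For 3 keratins the response to HGF differed between Detroit 562 and SCC-9 in edgeR's test of the interaction. The difference of log2 fold changes, Detroit 562 minus SCC-9, was -1.38 ± 0.34 (adjusted p = 0.0991) for KRT71, a keratin of the hair root sheath. It was -1.74 ± 0.38 (adjusted p = 0.0695) for KRT3, a corneal keratin, and -1.72 ± 0.42 (adjusted p = 0.0991) for KRT79. In each, all 3 pairs were lower with HGF in Detroit 562. In SCC-9 all 3 pairs were higher for KRT3 and KRT79 and 2 of 3 for KRT71. All 3 have low counts in a cluster where neighbours match in count, and the part of shared reads in these values was not tested.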

How the results depend on the processing

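Leaving out 1 library of the groups compared at a time gave 13 to 22 keratins called with HGF in Detroit 562 and 0 in either other line, 28 to 30 between untreated Detroit 562 and FaDu, 37 to 39 between Detroit 562 and SCC-9 and 30 to 38 between FaDu and SCC-9. Over all 18 libraries left out in turn, the highest of the first and second of these line counts were 31 and 40. For the interactions it gave 0 to 14 between Detroit 562 and SCC-9 and 0 for both other pairs of lines. Shares of all genes are not given for these counts, so a general change in calls cannot be told apart from one of the keratins. Among the keratins called with HGF in either fit of a line, the 1 whose direction turned was KRT75 in FaDu, at -1.09 to 0.0214 over these fits and 0.0214 without HGF replicate 3, against -0.39 with all libraries, where it was not called. Without the keratins that match a neighbour, an alternative chosen after seeing the data, 12 were called in Detroit 562, with KRT3, KRT76 and KRT79 of the same cluster still among them.

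The replicate block gave 15 calls in FaDu, 1 in SCC-9 and, for the interactions, 7 between Detroit 562 and FaDu, 29 between Detroit 562 and SCC-9 and 5 between FaDu and SCC-9. That between Detroit 562 and SCC-9 was 3 without the block, 1 with no filter, 12 by DESeq2 with and 12 without its prior and 7 when only the lines compared entered the fit. The causes were not tested, and shares of all genes are given only for the main and the blocked fit. Across the named keratins, the alternatives other than leaving out a library left 421 values on their side of the threshold, put 26 past it (22 of them with the block) and took 5 below it. Depth limits most the keratins under about 1 CPM, whose counts are few.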

Other observations

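Among type I hair shaft keratins in untreated cells, KRT40 was 1.51, 1.71 and 0.754 CPM in Detroit 562 and at most 0.0765 CPM in any untreated library of the other lines. KRT32 was 1.99, 1.46 and 0.869 CPM in FaDu, 0.283, 0.136 and 0.162 in Detroit 562 and 0.143, 0.0713 and 0.306 in SCC-9. KRT33B, KRT35 and KRT36 were below 0.5 CPM in every library.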
